A study of Mus musculus with 36 samples.

Results

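Zfp36, Zfp36l1, Zfp36l2 and Klf10 were followed across gastrocnemius muscle of 36 male C57BL/6 mice, and all 4 genes were found by name among the 46893 features of the count table. The mice were wild type and 3 to 4 weeks old at the start, and each of 6 groups held 6 mice. NFD-C mice were sedentary on the AIN93G diet, and HFD-C mice were sedentary on a high-fat diet based on the same formulation. The high-fat diet held more soybean oil and less corn starch, with less of its energy from carbohydrate. The 4 groups of runners ate the high-fat diet with a wheel in the cage for 12 weeks, at 2.1 km/day (HFD-25%), 4.2 km/day (HFD-50%), 6.3 km/day (HFD-75%) and 8.3 km/day (HFD-U). The unrestricted HFD-U mice set the distances, and a brake stopped the wheel of the other runners once their share was reached. The 4 genes were chosen by their response to running distance. Zfp36l1 and Klf10 were among the 5 genes of the table whose curve over the 24 runners passed adjustment. Zfp36 and Zfp36l2 were added as the family of Zfp36l1. The values of the 4 genes in comparisons that involve runners are therefore given as a description without a test. Only the comparison of NFD-C with HFD-C was tested for them. NFD-C mice had no part in the choice. HFD-C mice also stand in comparisons with runners that were known at the choice, so this test is not fully free of it.

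Zfp36 (tristetraprolin), Zfp36l1 and Zfp36l2 encode zinc finger proteins that bind AU-rich elements in the 3′ untranslated region of messenger RNAs and recruit the CCR4-NOT complex, which removes the poly(A) tail so that the RNA is degraded. Their targets include RNAs of cytokines, growth factors and cell cycle regulators, and the Zfp36 RNA itself carries such elements. The p38 MAPK pathway, through MK2, phosphorylates tristetraprolin and holds back its activity. Klf10 encodes a Krüppel-like transcription factor first described as a gene that TGF-beta induces early, and in muscle and liver it is also known as a factor tied to the clock and to nutrient use.

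The AU-rich sites in the genes' own 3′ untranslated regions are shown because the same kind of site is what the family binds. Each line holds 30 bases of the minus strand in GRCm38, from the GENCODE M21 annotation, 5′ to 3′. Capitals mark TTATTTATT, the 9-base form of the site, or TATTTAT, the 7-base core, for Klf10.
Zfp36, chr7:28376950-28376979: tatgacgactTTATTTATTgtattaagatt
Zfp36l1, chr12:80108166-80108195: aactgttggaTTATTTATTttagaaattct
Zfp36l2, chr17:84184913-84184942: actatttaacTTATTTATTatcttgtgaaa
Klf10, chr15:38294919-38294948: cagtgtcttttTATTTATaggagtttttca

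The region of Zfp36 is 774 bases long and held 3 copies of TATTTAT, 1 of them within TTATTTATT. Of 2456 regions whose length was within 20% of it, 4.44% held the 9-base form and 1.22% held at least 3 copies of the core. Zfp36l1 (1835 bases) and Zfp36l2 (1822 bases) also held 3 cores and 1 copy of the 9-base form each. Of 2586 regions of like length, 9.59% held the 9-base form and 4.02% held at least 3 copies of the core. Klf10 (1492 bases) held 1 core and no copy of the 9-base form, and 33.8% of 2651 regions of like length held a core. The 3 family members thus carried the longer form and Klf10 did not. Matches were searched on the strand of the RNA only, and copies of the core inside the longer form were counted.

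The promoters are shown for the family members with an entry, since Zfp36 is known as an immediate early gene. They are the 250 bases before the start of transcription from RefSeq (GRCm38.p6, minus strand), 5′ to 3′, at chr7:28379229-28379478 and chr12:80113014-80113263. Of the 4 genes, 2 matched the table, and Zfp36l2 and Klf10 are named only. In Zfp36 capitals mark GCGGGGGCG, a site of EGR factors, and a CArG box, which serum response factor binds. In Zfp36l1 they mark TGATTCA, a match to TGANTCA, a loose AP-1 pattern in which the middle base can be any. They also mark a TATA box, spelled TATAAA, near the start.
Zfp36: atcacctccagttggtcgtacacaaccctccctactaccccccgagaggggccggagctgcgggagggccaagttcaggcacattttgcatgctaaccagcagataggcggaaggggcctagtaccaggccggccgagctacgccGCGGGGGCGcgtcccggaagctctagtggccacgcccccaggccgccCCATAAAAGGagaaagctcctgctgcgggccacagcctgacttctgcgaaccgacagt
Zfp36l1: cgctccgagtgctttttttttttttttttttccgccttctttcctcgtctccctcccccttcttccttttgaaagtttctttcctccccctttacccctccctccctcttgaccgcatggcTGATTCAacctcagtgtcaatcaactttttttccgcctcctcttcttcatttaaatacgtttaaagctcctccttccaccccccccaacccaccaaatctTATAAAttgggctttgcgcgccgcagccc

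In Zfp36 the EGR site lay at -105 to -97 and the CArG box at -58 to -49 from the start. In Zfp36l1 the TGANTCA match lay at -129 to -123 and the TATA box at -29 to -24. Of 32851 promoters searched on both strands, 2.57% held the EGR site, 1.47% a CArG box, 6.75% a TGANTCA match and 12.4% a TATA box. An E-box, CACGTG, which clock factors bind, and a cAMP response element, TGACGTCA, were also searched. They stood in 6.02% and 1.55% of promoters, and these letters were not in either of the promoters shown.

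The total count per library was 13060090 to 27981702, with a median of 16710687.5. The counted features included rRNA-linked ones (AY036118, LOC118568312, Lars2, mt-Rnr1 and mt-Rnr2). Lars2 is also among the genes for which the authors name a significant dose-response curve. Together these features took 2.01 to 3.8% of the counts in 10 libraries (all NFD-C mice and HFD-C replicates 1 to 4). They took 0.404 to 1.02% in the other 26 (HFD-C replicates 5 and 6 and all 24 runners). Library set and running therefore overlap almost completely, and comparisons with HFD-C are given with all its mice and with replicates 5 and 6 alone. Markers of myofibres were the most abundant of 9 marker lists, with summed levels of 91516 to 167960 CPM (counts scaled to a common library size). The 5 neutrophil markers in the table all had means under 0.5 CPM, with a sum of up to 12.7 CPM in 1 HFD-50% mouse. Each library is 1 mouse, and p-values measure the spread between these mice only. In whole muscle, fewer cells of a type cannot be told apart from less RNA per cell.

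Zfp36 (GRCm39, 7:28076209-28078653) was the most abundant of the 4 per length of transcript, with 14.3 ± 6.32 FPKM (SD, n = 36). Zfp36l1 (12:80154534-80159787) followed with 7.56 ± 1.96 FPKM, Klf10 (15:38291708-38300955) with 6.17 ± 3.04 FPKM and Zfp36l2 (17:84491352-84495375) with 3.63 ± 0.787 FPKM. The gene spans lie on the minus strand and include exons and introns. The remaining family member, Zfp36l3, had 42 counts in all, spread over 14 of 36 libraries, and at most 0.543 CPM in any of them. It was not considered further.

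Zfp36l1 was highest in HFD-50% and lowest in HFD-U. In HFD-50% its lowest, median and highest values were 26.6, 31.7 and 31.9 CPM. In HFD-C they were 14, 19.4 and 25.0 CPM, and in HFD-U 12.1, 15.9 and 23.5 CPM. All 6 HFD-50% mice lay above all mice of HFD-C, of NFD-C and of HFD-U, and 5 of the 6 lay within a narrow band at the top of the whole series. Zfp36l1 was chosen by its curve over the runners, so a gap between HFD-50% and HFD-U follows in part from the choice. The share of all genes with such a separation is not given here, and nothing is read from it.

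HFD-25% mice had 21, 25.2 and 29.9 CPM of Zfp36l1 (lowest, median, highest). HFD-75% mice had 18.4, 24.4 and 28.6 CPM, and NFD-C mice 16.3, 18.6 and 23.3 CPM. The middle groups thus lay between HFD-50% and the sedentary mice, and their ranges overlapped with those on either side. The group means in order were 30.9 ± 2.09 in HFD-50%, 25.6 ± 3.63 in HFD-25%, 24.2 ± 3.74 in HFD-75%, 19.4 ± 3.51 in HFD-C, 18.8 ± 2.52 in NFD-C and 16.5 ± 4.25 CPM in HFD-U (SD, n = 6). Only the steps from HFD-50% to HFD-25% (1.78 pooled SD) and from HFD-75% to HFD-C (1.34 pooled SD) exceeded the spread between mice.

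Klf10 followed the same order of groups at the ends, with the highest level in HFD-50% and the lowest in HFD-U, but with a far wider spread. In HFD-50% the lowest, median and highest mice had 20.6, 43.4 and 58.4 CPM. In HFD-75% they had 20.4, 29.3 and 46.7 CPM, and in HFD-25% 17.6, 21.1 and 30.7 CPM. HFD-50% mice fell apart, since 4 of 6 lay above every HFD-C mouse and replicates 3 and 6 lay among the sedentary values.

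HFD-C mice had 14.2, 19.2 and 27.3 CPM of Klf10 (lowest, median, highest). NFD-C mice had 13.4, 16.2 and 35.2 CPM, and HFD-U mice 10.2, 13.5 and 23.0 CPM. In HFD-U, 3 of 6 mice lay below every HFD-C mouse, and the ranges overlapped. The means were 40.2 ± 16.3 in HFD-50%, 32.1 ± 10.1 in HFD-75%, 22.4 ± 4.97 in HFD-25%, 19.8 ± 5.28 in HFD-C, 19.4 ± 8.19 in NFD-C and 15.0 ± 4.71 CPM in HFD-U. Of the steps between neighbours only that from HFD-75% to HFD-25% was above 1 pooled SD (1.22).

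Zfp36 ran the other way, with its lowest levels in the 3 restricted groups. HFD-25% mice had 13.5, 18.1 and 29.0 CPM (lowest, median, highest), HFD-50% mice 13.4, 19.6 and 32.7 CPM and HFD-75% mice 12.2, 18.4 and 27.1 CPM. HFD-U mice had 19.3, 29.5 and 40.4 CPM. The ranges of all groups overlapped, and 4 of 6 HFD-U mice lay above every HFD-75% mouse.

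The sedentary mice set the limits of what can be read from Zfp36. HFD-C mice had 18.9, 23.2 and 44.4 CPM and NFD-C mice 12.0, 31.7 and 65.2 CPM. Within HFD-C the 4 mice whose libraries had a high rRNA-linked share lay at 18.9 to 24.7 CPM, while replicates 5 and 6, with a low share, had 42.4 and 44.4 CPM. The part of the library set in this split was not tested. Group means were 32.7 ± 18.5 in NFD-C, 29.7 ± 8.04 in HFD-U, 28.8 ± 11.5 in HFD-C, 21.6 ± 7.59 in HFD-50%, 19.8 ± 6.17 in HFD-25% and 18.6 ± 5.26 CPM in HFD-75%, and no neighbours in this order differed by more than 0.747 pooled SD.

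Zfp36l2 showed the least difference between groups. The highest group mean, 13.7 ± 4.03 CPM in HFD-50%, was 1.18 times the lowest, 11.6 ± 2.31 CPM in HFD-75%, against 2.67 times for Klf10, 1.87 times for Zfp36l1 and 1.76 times for Zfp36. NFD-C, HFD-C, HFD-25% and HFD-U had 13.5 ± 2.34, 11.9 ± 1.99, 13.7 ± 2.65 and 12.7 ± 3.28 CPM. All neighbours lay within 0.307 pooled SD of each other, and HFD-50% mice alone spanned 7.64 to 19.3 CPM. In HFD-C, replicates 5 and 6 had 9.04 and 10.2 CPM and the other mice 11.6 to 14.1 CPM.

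**Figure D1:**
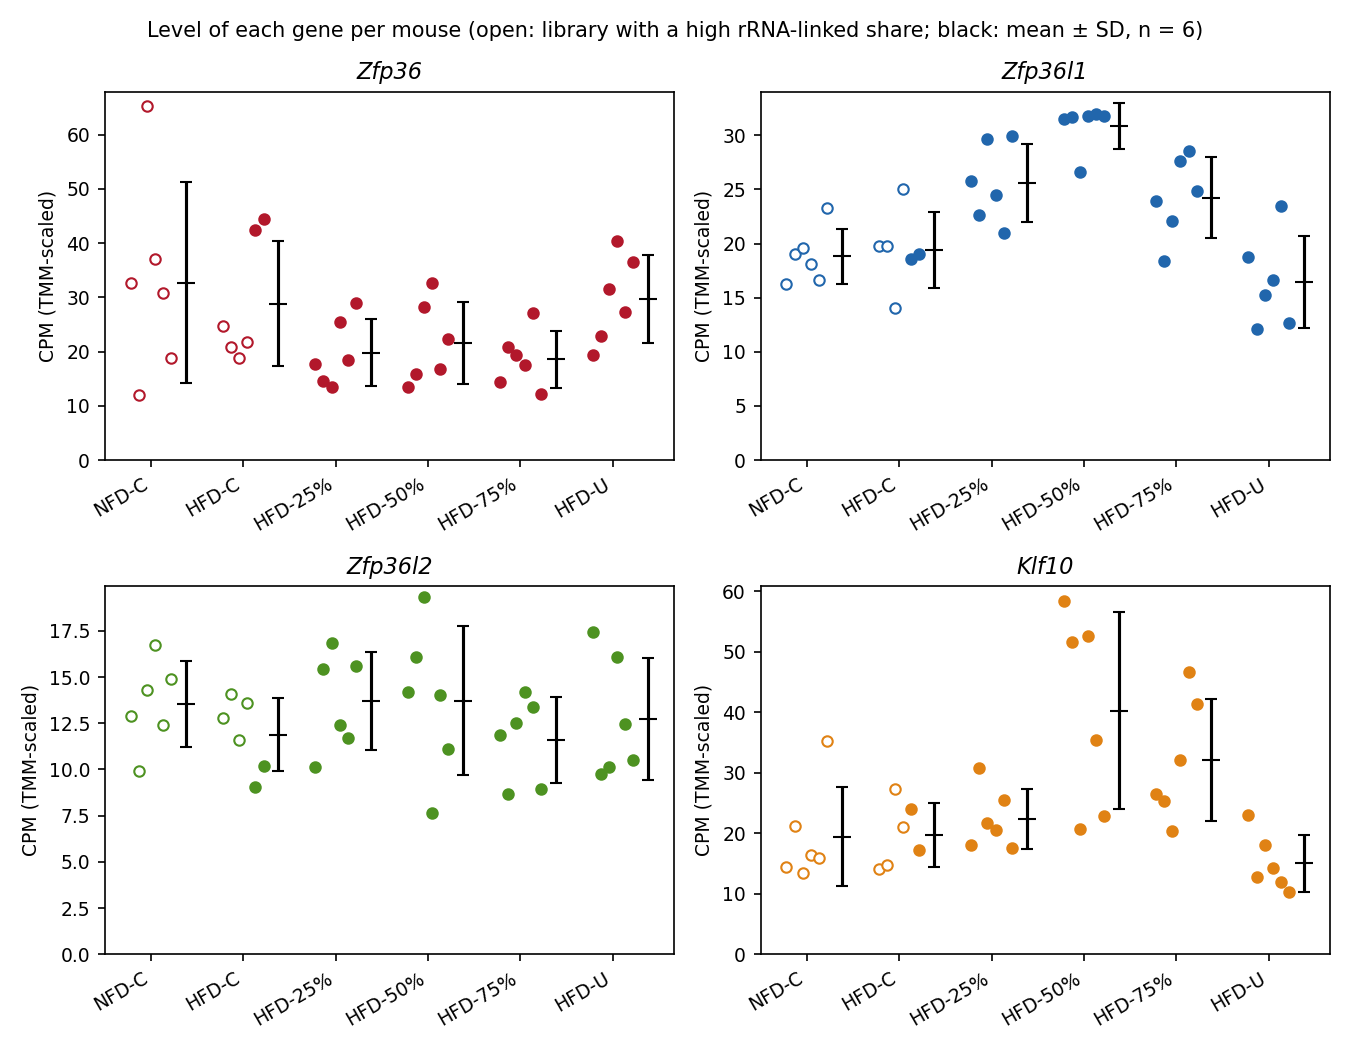
Levels of the 4 genes in CPM (vertical axis, linear from 0) for each mouse in the 6 groups, in order of replicate number, with the group mean ± SD in black (n = 6) and open points for libraries with a high rRNA-linked share. Zfp36l1 in HFD-50% stands above the sedentary mice and HFD-U, Klf10 in HFD-50% splits into high and low mice, and the HFD-C mice with the highest Zfp36 are replicates 5 and 6.

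NFD-C was compared with HFD-C to ask how the genes differed between the diets without running. None of the 4 genes passed the test. The log2 fold changes of NFD-C over HFD-C were 0.19 for Zfp36 (SE 0.33), -0.03 for Zfp36l1 (SE 0.14), 0.19 for Zfp36l2 (SE 0.15) and -0.01 for Klf10 (SE 0.24), each with an adjusted p of 0.9996 in edgeR's quasi-likelihood test. Of the 4 genes 0 were called at an unadjusted p of at most 0.05, against 4.12% of 12247 genes, and 0 genes of the table passed adjustment with edgeR (504 unadjusted). With DESeq2 2 genes passed, neither of them among the 4. The 95% intervals were -0.52 to 0.89 for Zfp36, -0.32 to 0.25 for Zfp36l1, -0.12 to 0.51 for Zfp36l2 and -0.51 to 0.48 for Klf10. The interval of Zfp36 was the widest. With libraries of high rRNA-linked share alone (6 NFD-C and 4 HFD-C mice) the difference of Zfp36 was 0.60, and without NFD-C replicate 3, which had the highest level, it was -0.14.

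Against HFD-C, Zfp36l1 was higher in each restricted group. Its log2 fold change was 0.40 (SE 0.14) at HFD-25%, 0.68 (SE 0.13) at HFD-50% and 0.33 (SE 0.14) at HFD-75%, while it was -0.23 (SE 0.17) at HFD-U. With HFD-C replicates 5 and 6 alone the values were 0.46, 0.72, 0.37 and -0.19. With the rRNA-linked percent as a covariate they were 0.43, 0.69, 0.37 and -0.20, so the 3 fits lay close together. The latter fits both rest largely on HFD-C replicates 5 and 6, the only sedentary mice with a low share like the runners. They are therefore not separate checks on the library set.

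Klf10 had log2 fold changes of 0.18 (SE 0.18), 1.03 (SE 0.26), 0.70 (SE 0.21) and -0.39 (SE 0.21) with increasing distance. They were 0.13, 0.97, 0.64 and -0.45 against HFD-C replicates 5 and 6 alone, and -0.04, 0.84, 0.51 and -0.63 with the covariate. The direction in HFD-25% thus differed between fits. Those in HFD-50%, HFD-75% and HFD-U were the same in the 3 fits, which all hold HFD-C replicates 5 and 6.

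Zfp36 had -0.54 (SE 0.25), -0.41 (SE 0.27), -0.62 (SE 0.24) and 0.05 (SE 0.24). Against HFD-C replicates 5 and 6 alone the same values were -1.13, -0.996, -1.22 and -0.55, and with the covariate -0.97, -0.74, -1.02 and -0.41. The size of the differences of Zfp36 thus moved with the sedentary libraries used, and in HFD-U its sign did, also without HFD-U replicate 4 (-0.06). Zfp36l2 had 0.20 (SE 0.16), 0.21 (SE 0.19), -0.03 (SE 0.16) and 0.10 (SE 0.17), and against replicates 5 and 6 alone 0.52, 0.52, 0.27 and 0.41. Its value in HFD-U turned to -0.01 without HFD-U replicate 1.

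**Figure D2:**
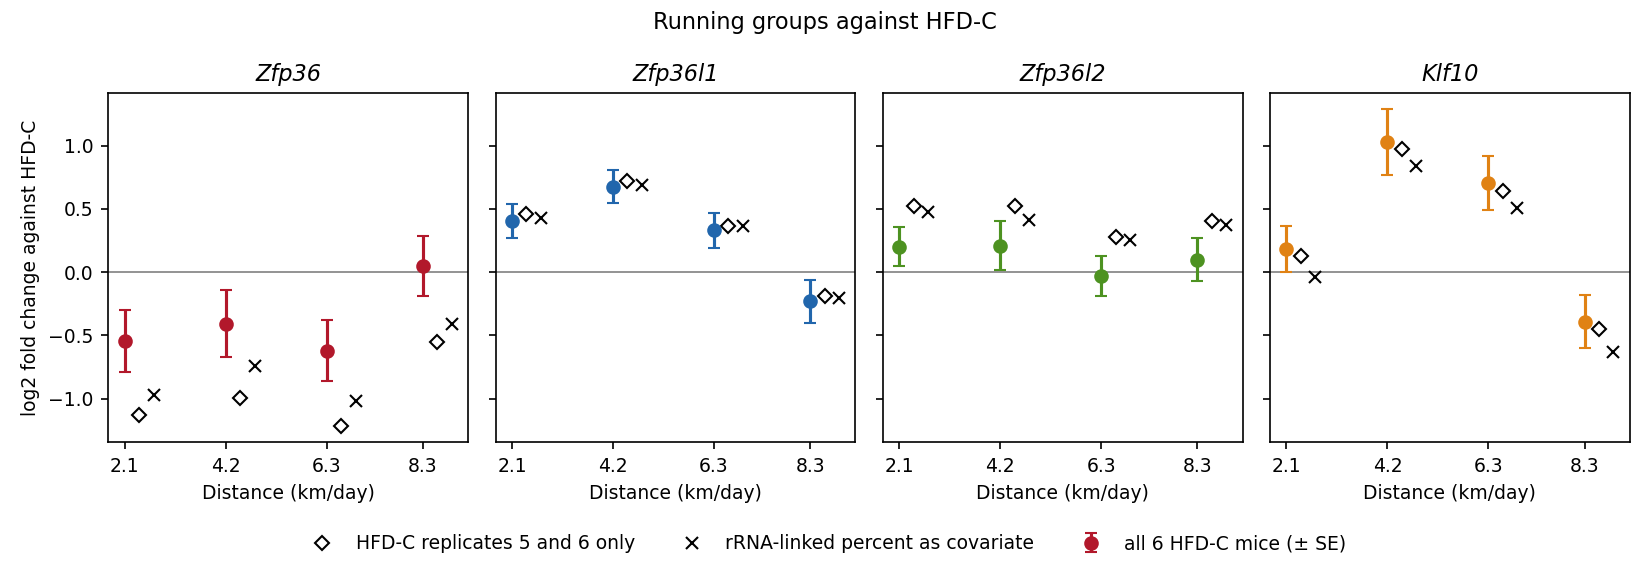
Log2 fold change against HFD-C (vertical axis) of the 4 genes at each running distance in km/day, with all 6 HFD-C mice (coloured, ± SE), with HFD-C replicates 5 and 6 only (diamonds, no error shown) and with the rRNA-linked percent as a covariate (crosses, no error shown), the latter shifted to the right for clarity. For Zfp36l1 the 3 estimates nearly coincide, while for Zfp36 those with all HFD-C mice lie highest (-0.62 against -1.22 in HFD-75%).

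Between runners, which share a library set, HFD-50% exceeded HFD-U by 1.41 (SE 0.27) for Klf10 and by 0.91 (SE 0.15) for Zfp36l1 on the log2 scale. For Zfp36 the difference was -0.45 (SE 0.23) and for Zfp36l2 0.11 (SE 0.21), which turned to -0.02 without HFD-50% replicate 3 and was 0.27 with the covariate. The covariate left Klf10 at 1.41 and moved Zfp36 to -0.99.

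Against HFD-C, 2 of the 4 genes were at an unadjusted p of at most 0.05 in edgeR for HFD-25%, where 6.98% of all genes were. The count was 2 for HFD-50% (10.7% of all genes), 3 for HFD-75% (5.47%) and 0 for HFD-U (5.46%). Between HFD-50% and HFD-U it was 2 (12.4%). Since the genes were chosen for such differences, nothing is read from these counts. Single mice moved them: HFD-75% had 1 without HFD-C replicate 5 or 6, HFD-25% had 1 without HFD-C replicate 5 or 6 or HFD-25% replicate 1, 2, 3 or 5, and HFD-U had 1 without HFD-C replicate 1 or 2 or HFD-U replicate 1 or 5. In HFD-U against HFD-C, where mice of the same number deviated together, a block for the number left the count of members at 0 and raised that of all genes from 657 to 1232.

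The curve over running distance had its turning point near the middle for the 4 genes when HFD-C was included. The fitted maximum of Zfp36l1 lay at 46.2% of the unrestricted distance, that of Zfp36l2 at 48.0% and that of Klf10 at 48.6%. The fitted minimum of Zfp36 lay at 49.9%. The observed means of Zfp36 were not lowest in HFD-50%, with 19.8 CPM in HFD-25%, 21.6 in HFD-50% and 18.6 in HFD-75%. Those of Zfp36l2 did not trace a clear peak, with 11.9, 13.7, 13.7, 11.6 and 12.7 CPM from HFD-C to HFD-U. From the fitted start to the turning point the log2 change was 1.02 for Klf10, 0.62 for Zfp36l1, 0.10 for Zfp36l2 and -0.59 for Zfp36. At the full distance the fitted values were back within 0.22 log2 units of the start, with changes of -0.12, -0.22, -0.02 and 0.00 in the same order.

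Over the 24 runners alone the fitted maxima lay at 48.9% for Zfp36l1 and 57.2% for Klf10, and the fitted minimum of Zfp36 at 47.7%. At its maximum Klf10 lay 1.42 log2 units above its value at the full distance, and Zfp36l1 0.87. For Zfp36l2 the bend turned over, with a minimum at 84.7% and a depth of 0.18 log2 units, so its shape depended on whether sedentary mice were included. The sign of the quadratic term was the same in all 37 fits of the first curve, and in all 30 of the second, for each of the 4 genes, although that of Zfp36l2 in the second came as near to 0 as 0.04 without HFD-U replicate 1. When a term for library set was added, the quadratic term of the first curve went from 2.35 to 3.43 for Zfp36, from -2.91 to -3.06 for Zfp36l1, from -0.45 to -0.82 for Zfp36l2 and from -4.31 to -4.73 for Klf10.

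**Figure D3:**
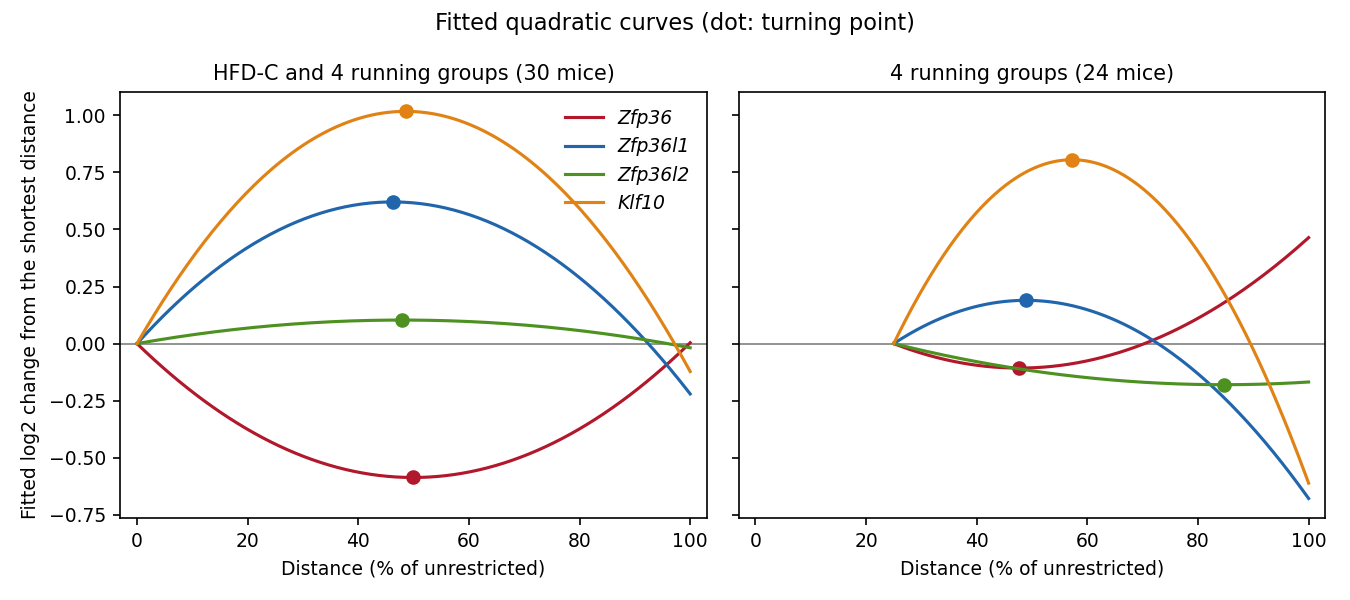
Fitted quadratic curves of the 4 genes over running distance (horizontal axis, percent of the unrestricted distance), as log2 change from the shortest distance of each fit (vertical axis), with a dot at each turning point, for 30 mice with HFD-C (left) and for 24 runners (right). Klf10 and Zfp36l1 bend downwards and Zfp36 upwards in both fits, and Zfp36l2 is nearly flat.

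Of the 4 genes, 3 had a curve at an unadjusted p of at most 0.05 in each fit, against 12.2% of 12006 genes with HFD-C and 8.49% of 11935 without. After adjustment Zfp36l1 and Klf10 remained in each, against 0.683% and 0.0419% of all genes. These values took part in the choice of the genes, and nothing is read from them.

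Deviations of each mouse from its group mean, which the choice did not use, showed how the 4 genes vary together. Zfp36 and Klf10 deviated in opposite directions, with r = -0.39 (Spearman's rho -0.40) over 36 mice. Mice of the same number deviated together across groups in the whole table, most for number 1 (mean r 0.50) and number 2 (0.27). Without the mice numbered 1 the r of Zfp36 and Klf10 was -0.35, and with the mean of each number removed it was -0.44. Zfp36l1 and Zfp36l2 deviated together with r = 0.34, and Zfp36l1 and Klf10 with r = 0.22. Zfp36 and Zfp36l1 had r = -0.08, which became -0.25 with the number means removed. The remaining pairs had r of -0.07 and -0.04. Over all mice with group differences included, r was 0.64 for Zfp36l1 and Klf10 and -0.52 for Zfp36 and Klf10. Each point is a library, so its depth, scaling and cell makeup are shared by both genes.

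**Figure D4:**
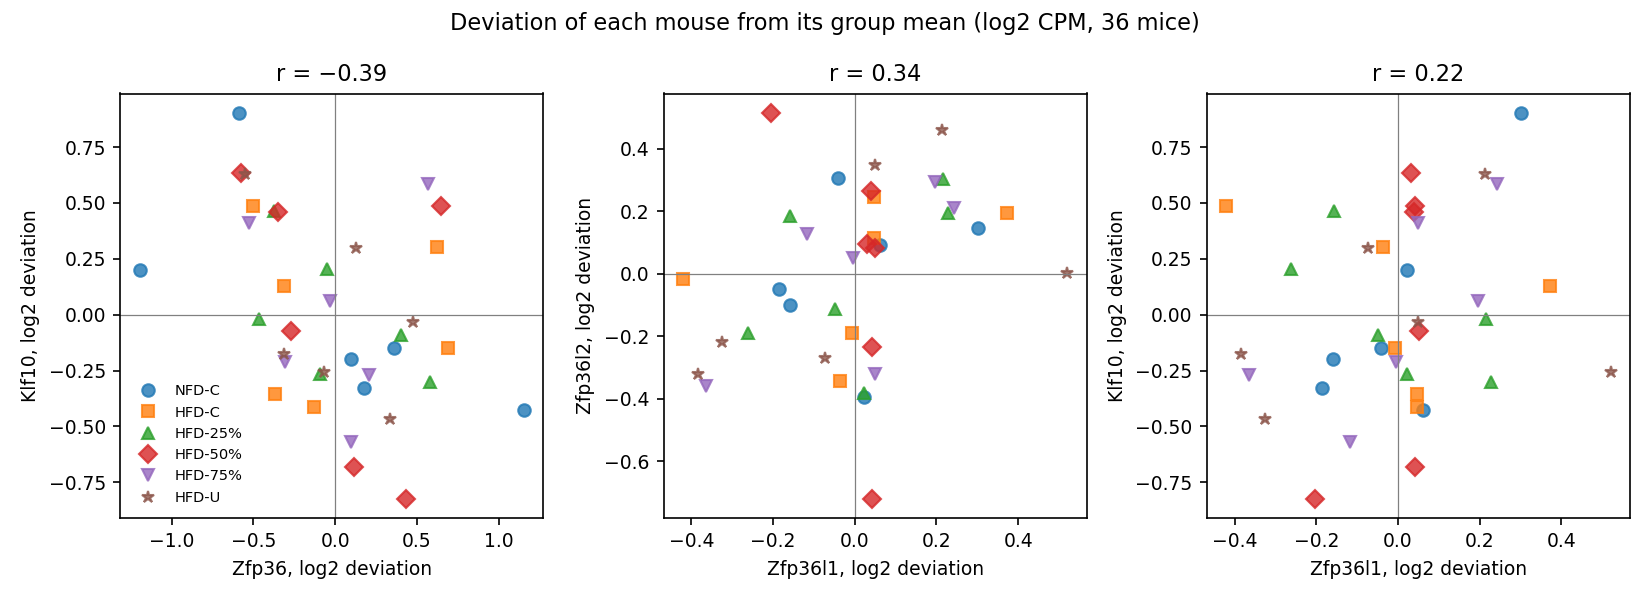
Log2 deviation of each mouse from its group mean for 3 pairs of genes, with the groups as symbols and Pearson's r above each panel (n = 36). The cloud of Zfp36 against Klf10 slopes downwards (r = -0.39), and the others slope weakly upwards.

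Summed markers of other cells moved with some of these deviations. Zfp36l2 went with 7 fibroblast markers (r = 0.78) and with 11 macrophage and leukocyte markers (r = 0.65), of which Cd3e had a mean under 0.5 CPM. It also went with endothelial markers (r = 0.47, Spearman's rho 0.44). Its r against satellite cell markers was -0.43, with a rho of -0.21. Zfp36 went with adipocyte markers (r = 0.50) and with blood markers (r = 0.49), and Klf10 against blood (r = -0.41) and endothelial markers (r = -0.40). Zfp36l1 had its largest values with adipocyte markers (r = 0.36) and myofibre markers (r = -0.32). The fibroblast sums ranged from 376 to 639 CPM in HFD-C and from 260 to 600 in HFD-50%, and the endothelial sums from 188 to 370 CPM in HFD-C and from 235 to 477 in HFD-50%. The endothelial median was highest in HFD-25%, at 365 CPM with a highest mouse of 697, against 266 in HFD-C. Adipocyte and blood sums had their highest medians in HFD-50%, with 274 CPM for adipocyte markers against 182 in HFD-C and 265 CPM for blood markers against 200 in HFD-C. The ranges of these sums overlapped between the groups. The part of these cells in the levels of the 4 genes was not tested.

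The genes most like each member were taken from 12049 genes by Pearson's r of log2 CPM over 36 mice. Nearest to Zfp36 was Gadd45g, a stress-induced gene (r = 0.71, 0.65 for the deviations), followed by LOC118568618, Vamp5, Rhob and Slc10a6. Zfp36l1 was nearest to Egfl7 (r = 0.72) and Sox18 (r = 0.70), which are genes of endothelial cells, then to Mast2, Id3 and Tnfrsf25. For the deviations from the group means r was 0.46 for Egfl7 and 0.35 for Sox18. With the summed endothelial markers the deviations of Zfp36l1 had r = 0.27. Egfl7 had 55.0 ± 22.0 CPM in HFD-50%, 32.7 ± 7.0 in HFD-C and 28 ± 7.36 in HFD-U.

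Zfp36l2 was nearest to Pi16 (r = 0.73, 0.76 for the deviations), a fibroblast gene, then to Bmp1, Unc93b1, Papss1 and Nid1. Klf10 was nearest to Tgif1 (r = 0.82, 0.76 for the deviations), a homeobox repressor of TGF-beta signalling, then to Cyren, Rnase13, Cnnm3 and Gm36112. Tgif1 had 9.74 ± 5.87 CPM in HFD-50%, 8.51 ± 4.16 in HFD-75%, 5.53 ± 1.37 in HFD-C and 4.63 ± 1.25 in HFD-U.

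Genes around the 4 members were counted in HFD-50% against HFD-C and in the curve over 5 distances, at an unadjusted p of at most 0.05. Over all genes 5.8% were higher and 4.89% lower in HFD-50%, and 6.55% had a bell-shaped and 5.68% a U-shaped curve. These names stand for the sign of the quadratic term alone (negative for bell-shaped), so a curve that levels off or falls throughout also gets one of them. The p of a curve tests its linear and quadratic terms together. It therefore measures any change with distance and is not a test of the bend. In HFD-50% against HFD-C 0 genes of the table passed adjustment in edgeR (1296 unadjusted) and 160 in DESeq2, so the calls given for this comparison are unadjusted, with edgeR.

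Of 30 genes of the decay machinery that the family recruits, 1 was higher and 2 lower in HFD-50%, near the 10.7% of all genes called in this comparison. Btg1 was higher (log2 fold change 0.42, SE 0.15), and Tob1 (-0.73, SE 0.19) and Tob2 (-0.35, SE 0.16) were lower. These are the BTG/Tob adaptors of the deadenylase, not its catalytic subunits. Tob1, with Pabpc4 the most abundant of the list, fell from 236 ± 44.0 CPM in HFD-C to 142 ± 38.7 in HFD-50% and stood at 217 ± 65.6 in HFD-U. The list's median log2 fold change was 0.01, as over all genes (0.01). Tob1 had a U-shaped curve, and Btg1 had a bell-shaped one. Tnks1bp1 also had a negative quadratic term, but its log2 fold change against HFD-C stayed between -0.10 and -0.01 up to HFD-75% and was -0.44 in HFD-U.

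Of 16 other proteins that bind AU-rich or decay elements 0 were higher and 2 lower in HFD-50%, Rc3h2 (-0.35, SE 0.12), which encodes Roquin-2, and Zc3h12c (-0.43, SE 0.17), of the Regnase family. The median was -0.04. In the curve 4 were U-shaped, with Pum2 after these, and 0 bell-shaped. The most abundant, Ybx1 and Hnrnpdl, had 587 ± 92.4 and 122 ± 15.8 CPM in HFD-C and 596 ± 47.6 and 140 ± 14.1 in HFD-50%.

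Among 18 regulators of ZFP36 proteins, 0 were higher and 1 lower in HFD-50%. The lower gene was Dusp1 (-0.76, SE 0.22), a phosphatase that turns off p38 MAPK, with 126 ± 41.4 CPM in HFD-C and 74.0 ± 20.7 in HFD-50%. The list's median was -0.07. In the curve Dusp1 was U-shaped and Map2k3, a kinase that activates p38, bell-shaped. The abundant 14-3-3 genes Ywhae and Ywhag had 353 ± 43.9 and 290 ± 41.7 CPM in HFD-C and 319 ± 52.7 and 244 ± 58.6 in HFD-50%.

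Known targets of the family were called in both directions. Of 34 listed, 19 had enough counts to be tested in HFD-50%, and none of the 19 encodes an interleukin or chemokine. Higher were Cdkn1a (1.48, SE 0.51), Pim1 (0.63, SE 0.23) and Dll4 (0.71, SE 0.29), and lower genes included Ccnd1 (-1.16, SE 0.38) and Irs1 (-0.38, SE 0.15). The median was 0.00. In the curve 2 were U-shaped, Irs1 among them, and 4 had a negative quadratic term, led by Cdkn1a, Pim1 and Notch1. Cdkn1a and Pim1 peaked in HFD-50%, whereas Notch1 decreased with distance and had no peak in the middle (0.26, -0.11, -0.34 and -0.53 against HFD-C). The most abundant, Vegfa, had 234 ± 18.8 CPM in HFD-C and 253 ± 85.9 in HFD-50%, and Mllt11 had 113 ± 19.9 and 90.1 ± 23.4.

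Of 11 other Krüppel-like factors tested, 3 were higher and 1 lower in HFD-50%. Klf11, the closest relative of Klf10, was higher by 0.77 (SE 0.16), Klf3 by 0.54 (SE 0.15) and Klf15 by 0.57 (SE 0.23), and Klf7 had -0.61 (SE 0.18). The list's median was 0.04. The same 3 genes had bell-shaped curves, and Klf3 passed adjustment (adjusted p = 0.0433, edgeR). Klf11 had 5.27 ± 0.490 CPM in HFD-C and, with increasing distance, 7.36 ± 1.35, 8.98 ± 1.84, 5.93 ± 1.44 and 5.39 ± 1.66 CPM. Klf7 had a positive quadratic term but stayed low beyond the middle (-0.51 in HFD-75% and -0.45 in HFD-U). Klf9, the most abundant, had 214 ± 34.0 CPM in HFD-C and 217 ± 65.5 in HFD-50%.

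In the TGF-beta pathway, 1 of 22 genes was higher and 2 lower in HFD-50%. Tgif1 was higher (0.82, SE 0.32), and the ligands Tgfb2 (-1.03, SE 0.20) and Tgfb3 (-0.41, SE 0.16) were lower. The list's median was 0.06. Tgfb2 had 17.1 ± 3.94 CPM in HFD-C and 10.3 ± 1.42, 8.36 ± 2.16, 10.9 ± 1.92 and 12.1 ± 3.09 CPM with increasing distance. Its curve was U-shaped, and its linear and quadratic terms together had an adjusted p of 0.0108 in edgeR. Smurf2 was also U-shaped and Tgif1 bell-shaped. Tgfb3 had a positive quadratic term, with similar values at all distances (-0.45, -0.41, -0.38 and -0.28). Mstn and Acvr1b, the most abundant, had 79.5 ± 32.9 and 92.3 ± 28.4 CPM in HFD-C and 98.8 ± 29.6 and 88.7 ± 26.4 in HFD-50%.

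Immediate early genes, a class that Zfp36 belongs to, had 0 of 20 higher and 2 lower in HFD-50%, Nr4a1 (-1.01, SE 0.20) and Dusp1. The median was -0.10. In the curve 3 of 21 had a positive quadratic term, Nr4a1, Dusp1 and Jund, and 0 a negative one. Jund did not have the shape of Zfp36, since it lay below HFD-C at every distance (-0.52, -0.34, -0.48 and -0.50) without coming back. Nr4a1, the most abundant, had 238 ± 54.8 CPM in HFD-C, 118 ± 30.1 in HFD-50% and 219 ± 73.2 in HFD-U, and Jun had 124 ± 19.9, 109 ± 45.4 and 106 ± 16.1.

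Of 17 clock genes, 2 were higher in HFD-50% (Nfil3, 0.94, and Arntl, 1.07) and 4 lower, led by Bhlhe40 (-0.89), Nr1d1 (-0.86) and Bhlhe41 (-0.88). The median was -0.16. In the curve 8 were U-shaped and 2 bell-shaped. Bhlhe40 and Nr1d1, both repressors of the clock, passed adjustment (adjusted p = 0.0001 and 0.00361, edgeR). Of 20 genes that glucocorticoids induce, 10 were higher and 2 lower in HFD-50%, led by Angptl4 (1.79), Fkbp5 (1.52) and Foxo1 (1.33) and by Dusp1 and Per1 (-0.49), with a median of 0.63. In the curve 9 were bell-shaped and 2 U-shaped, and Angptl4, Fkbp5 and Foxo1 passed adjustment. Pdk4, a brake on glucose oxidation, had 1139 ± 444 CPM in HFD-C, 2069 ± 1077 in HFD-50% and 1128 ± 174 in HFD-U, and Fbxo32, a ubiquitin ligase of muscle wasting, had 481 ± 58.8, 890 ± 646 and 469 ± 174. The spread in HFD-50% was thus wide, as for Klf10. The most abundant clock genes, Tef and Nr1d2, had 327 ± 41.5 and 161 ± 15.8 CPM in HFD-C and 291 ± 43.0 and 143 ± 15.4 in HFD-50%. Dusp1 stands in 3 of the lists and is the same value in each. The lists were chosen with results of these mice known, so their counts are a description.

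Between NFD-C and HFD-C, where 4.12% of all genes were called, each list had 0 to 3 calls. At an unadjusted p, 3 glucocorticoid-induced genes (Foxo1, 0.80, Zbtb16, 0.59, and Trim63, 0.43), 2 clock genes (Arntl, 0.53, and Rora, 0.33), Egr1 (1.01), Irs1 (0.40) and Cnot9 (0.29) were higher in NFD-C on the log2 scale, and Ccn2 (-0.49) was lower. The lists of other binding proteins, regulators and Krüppel-like factors had 0 calls among 16, 18 and 11 genes. None of the named genes passed adjustment in edgeR.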

How the data were processed

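Counts per gene were deposited by the authors as whole numbers for 36 libraries, without normalization. They were made from poly(A)-selected, 150 bp paired-end libraries, and the submitters' processing notes name HISAT2 2.0.5 and featureCounts 1.5.0-p3. The notes name the mm10 build, but the chromosome sequences given with the counts are those of GRCm39, whose coordinates are used for genes. The strand setting of the counting is not given in the sources used here.

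Analyses used R 4.3.3, edgeR 4.0.16 (TMM factors, quasi-likelihood F-test, two-sided) and DESeq2 1.42.0. Each fit held the compared groups alone and genes whose counts averaged 25 or more, with Benjamini-Hochberg adjustment over all of them. Curves had linear and quadratic terms of distance, which were tested together. CPM used TMM factors, FPKM the gene lengths in the table, and correlations log2(CPM + 1). The tests were checked on simulated data.

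The members and 9 lists of related genes were chosen with earlier results of these data known. Named were the members, the 5 genes most like each, and, per list, up to 3 called genes in each direction with the smallest p and the 2 most abundant genes. Alternatives were RLE size factors, DESeq2, no minimum count, a block for mouse number, the rRNA-linked percent as a covariate, library sets, other curve terms, other totals, and leaving out each mouse. All 6 pairs of same-numbered HFD-U and HFD-C mice deviated together (r = 0.144 to 0.554), and in the other comparisons not all pairs did. The main fits nevertheless did not pair mice, also for HFD-U against HFD-C. With a block for mouse number its log2 fold changes were 0.08 for Zfp36, -0.25 for Zfp36l1, 0.08 for Zfp36l2 and -0.40 for Klf10. Pairs of replicates differed by 14.7 to 181 times the sampling variance. Some genes of the lists are not reported here by name.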

Additional observations from a re-analysis of the deposited data

Results flagged for a closer look

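In 24 groups of 6 mice (4 genes in 6 groups), 2 held a mouse set far apart from the others, and chance alone gives about 1 in 20 such groups. The first was the lowest HFD-50% mouse for Zfp36l1, replicate 3, with 26.6 CPM, where the next mouse had 31.5 CPM and the gap took 0.918 of the group's range. The same mouse had the lowest Klf10 (20.6 CPM) and the highest Zfp36l2 (19.3 CPM) of HFD-50%. The second was the highest NFD-C mouse for Klf10, replicate 6, with 35.2 CPM against 21.3 CPM in the next, a gap of 0.640 of the range. Without it the log2 fold change of Klf10 between NFD-C and HFD-C was -0.27.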

How the results depend on the processing

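RLE size factors left the number of members called as it was in every comparison and curve. Without a minimum count, genes at an unadjusted p numbered 2240 for the diet, against HFD-C 2415 at HFD-25%, 2922 at HFD-50%, 2157 at HFD-75% and 2251 at HFD-U, 2844 for HFD-50% against HFD-U, and 5723 and 3699 for the curves over 5 and 4 distances. With the rRNA-linked percent as a covariate they were 1025 for the diet, 1635 at HFD-25%, 1282 at HFD-75%, 1746 at HFD-U and 629 for HFD-50% against HFD-U, and the members called became 1 in HFD-75% and 1 in HFD-U. Against the low-share HFD-C mice alone they were 1403 at HFD-25%, 1069 at HFD-75% and 1390 at HFD-U, again with 1 member in HFD-75% and 1 in HFD-U. The replicate block gave 850 for the diet and 1232 for HFD-U, and otherwise changed no comparison of 2 groups by over 1.5 times. Besides HFD-U and HFD-C, 1 to 5 of 6 same-numbered pairs deviated together. The number was not used to pair groups in the main fits. The cause of these moves was not tested.

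Klf10 in the diet contrast, main value -0.01, turned to 0.22 with the covariate and to 0.013 in high-share libraries. Leaving out a mouse gave -0.27 to 0.10 for Klf10, -0.14 to 0.36 for Zfp36 (negative without NFD-C replicate 3) and -0.11 to 0.054 for Zfp36l1, and 377 to 784 genes for the diet. It gave 1 to 2 members in HFD-25% (Zfp36 was lost without HFD-25% replicates 1, 2, 3 or 5 or HFD-C replicates 5 or 6), 1 to 3 in HFD-75% (1 without HFD-C replicates 5 or 6) and 0 to 1 in HFD-U (1 without HFD-C replicates 1 or 2 or HFD-U replicates 1 or 5).

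For the curve over 5 distances a linear term alone left 0 members and 474 genes. Its 82 genes at an adjusted p became 246 with DESeq2, 141 without a minimum count, 256 with the replicate block, 35 with a group factor, 6 with a linear term, 31 in mice numbered 2 to 6 and 22 with a term for library set, and 36 to 128 without single mice. The 5 genes of the curve over 4 distances became 52, 10, 13, 3, 0 and 1 under the first 6 of these, and 0 to 9 without single mice. Zfp36l2 had the lowest counts, 132 to 366 per library, and Zfp36 the widest standard errors in most comparisons. The part of depth in these errors was not tested.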
